A study of Caenorhabditis elegans with 4 samples.

Results

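Broad LIN-61 peaks are the widest stretches of the worm genome that the authors reported as bound by this protein. They were chosen by width alone, as the peaks of 2000 bp or more in the authors' peak list for the whole series. There were 686 of them among 14662 peaks, which is 4.68% of the list. The other 13976 peaks, termed narrower peaks, spanned 146 to 1998 bp.

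LIN-61 was mapped by chromatin immunoprecipitation and sequencing (ChIP-seq) in third-stage (L3) larvae of Caenorhabditis elegans strain N2, which is wild type, in a population of males and hermaphrodites. The series holds 2 ChIP libraries, precipitated with a rabbit polyclonal antibody raised against part of LIN-61, and 2 input DNA libraries. The input libraries were not analysed here, so background in input was not measured. Whole larvae were ground, so a peak can come from any of their cell types, and the share of cells that carry it is not known.

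LIN-61 is a protein with MBT repeats, a fold that recognises methylated histone tails, and it binds histone H3 methylated at lysine 9. It belongs to the synMuv B genes, which keep vulval and germline genes silent in cells where they should be off. In worms, histone H3 methylated at lysine 9 covers mainly the outer parts of the chromosomes, the arms, where repeats and transposons are common, and it is sparser in the gene-dense centres. The genes and repeats under the broad peaks were not analysed here.

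Every peak has a start, an end and a score in the deposited lists. The meaning of the score is not stated, so it serves only to rank peaks within a list. The read depth behind the lists is unknown. Each replicate has a list of its own, with 9958 peaks in replicate 1 and 13486 in replicate 2. How the whole-series list was made from the libraries is not stated. No test was run: the members were chosen by the peak caller's width, there is 1 whole-series list, and 2 replicates allow no permutation test that reaches 0.05. Each interval beside a share is the Clopper-Pearson (exact) 95% interval, which reflects counting error alone and takes no account of the dependence between neighbouring peaks.

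The broad peaks took a large part of the bound sequence. They covered 2.44 Mb, or 2.43% of the genome, and held 27.2% of all bases in peaks, while the narrower peaks covered 6.53 Mb and held 72.8%. The median width of the broad peaks was 2912 bp (quartiles 2373 and 3965 bp), against 324 bp for narrower peaks. Peaks chosen by width are wider, and hold more bases for their number, by construction. Most broad peaks were close to the lower bound. There were 373 peaks of 2 to 3 kb, 221 of 3 to 5 kb, 77 of 5 to 10 kb and 15 of 10 kb or more. These 15 widest peaks held 8.04% of the bases in broad peaks. The share of all covered bases depends on the bound and on gaps: it was 17.1% with a bound of 3000 bp and 54.7% when peaks less than 500 bp apart were merged first.

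The bound of 2000 bp does not fall in a gap between kinds of peak. Within 100 bp of it lay 52 peaks on the wide side and 49 on the narrow side. The 3 peaks just inside it were 2001, 2001 and 2004 bp wide, and the 3 just outside were each 1998 bp wide.

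The number of broad peaks differed between the lists. Under the same bound the replicate 1 list had 150 broad peaks, 1.51% of its peaks, holding 10.7% of its covered bases. The replicate 2 list had 449, or 3.33%, holding 20.6%. Over the 2 replicates the share of covered bases in broad peaks was 15.6% ± 7.1 (SD, n = 2), below the 27.2% of the whole-series list in both. The median width of the broad peaks themselves was almost the same in the replicates, 2704 ± 21 bp. No peak of 10 kb or more was in the replicate 1 list and 7 were in the replicate 2 list, against 15 in the whole-series list.

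**Figure D1:**
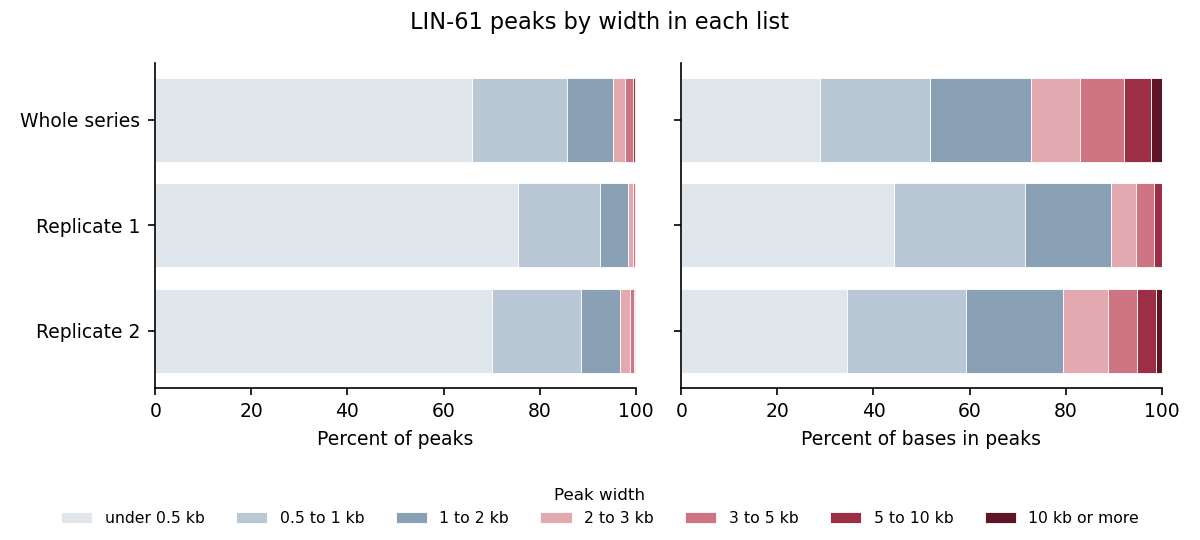
Share of peaks (left) and of bases in peaks (right) by peak width, in percent, for the whole-series list and each replicate list. The red classes are the broad peaks, chosen by width, so their share of bases exceeds their share of peaks by construction. They are 4.68%, 1.51% and 3.33% of the peaks of the whole series, replicate 1 and replicate 2. In the same order they hold 27.2%, 10.7% and 20.6% of the covered bases.

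The next question was where on the chromosomes the broad peaks lie. For this, the length of every chromosome was cut into 3 equal sections, a left arm, a centre and a right arm. Of the 686 broad peaks 614 lay on the arms, a share of 89.5% (95% interval 87.0 to 91.7), against 85.1% of the narrower peaks (84.5 to 85.7). The arms held 9.18 broad peaks per Mb and the centres 2.15, a 4.26-fold difference. For narrower peaks the densities were 177.9 and 62.4 per Mb, a 2.85-fold difference. Put the other way, 4.91% of the peaks on arms were broad (4.54 to 5.30) and 3.34% of those in centres (2.62 to 4.18).

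The difference in arm share between broad and narrower peaks was small, and it varied between chromosomes and lists. In the whole-series list the broad share on the arms exceeded the narrower share by 4.43 percentage points over the genome and by 9.15 points on III. It was above the narrower share on 5 of the 6 chromosomes, and below it on V by 0.88 points, with 83.8% of broad and 84.7% of narrower peaks on the arms. Without III the excess was 2.52 points, and the interval of the broad share, with the narrower share held fixed, then gave -0.73 to 5.31 points, which includes 0. The replicate lists, split at the same width, gave an excess of 6.81 points in replicate 1 and 1.66 points in replicate 2, 4.23 ± 3.64 points (SD, n = 2). In replicate 2 broad peaks had the higher arm share on 2 of 6 chromosomes, and without III the difference there was -0.31 points. In replicate 1 the excess without III was 8.40 points, so that the mean without III, 4.05 ± 6.16 points (SD, n = 2), was smaller than its spread. In the whole-series list the excess was also 1.55 points among the higher-scoring 50% of peaks, with such an interval of -0.98 to 3.73 points, and 7.62 points with arms taken as the outer 25% at each end.

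The left arm of chromosome III stood above every other section. It makes up 4.58% of the genome and held 128 broad peaks, 18.7% of them all, against 8.99% of the narrower peaks. There were 27.9 broad peaks per Mb, and the next section, the left arm of IV, had 14.7. Broad peaks covered 9.91% of the left arm of III and held 41.5% of the bases in its peaks. Of all its peaks 9.24% were broad (7.77 to 10.9), against 4.20% elsewhere (3.87 to 4.56). The same section led in both replicate lists: 3.35% of its peaks were broad in replicate 1 and 6.18% in replicate 2, against 1.24% and 3.01% elsewhere in the same lists. In the whole-series list no other section passed 5.83%, the share on the left arm of IV.

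The other sections spanned a narrower range in the share of peaks that were broad, 2.52% to 5.83%, than in density, 0.847 to 14.7 broad peaks per Mb. On chromosome I the left arm held 62 broad peaks, the centre 13 and the right arm 53, 3.81%, 3.01% and 4.21% of the peaks there. Chromosome II had 40, 10 and 49. On IV the left arm held 86 broad peaks and the right arm 29. On V the left arm held 26 and the right arm 57, and the left arm had a smaller broad share (2.85%) than the centre (4.08%, 16 peaks). The intervals of these sections of V overlap.

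The X chromosome had 32 broad peaks, 1.81 per Mb, the lowest density of the 6 chromosomes. It also had the lowest density of narrower peaks, 49.0 per Mb. The share of its peaks that were broad was 3.56% (2.44 to 4.98), against 3.86% on I, 3.87% on V, 4.54% on II, 5.02% on IV and 6.37% on III. Its broad peaks were as wide as elsewhere, with a median of 2981 bp on X and medians of 2754 to 2943 bp on the autosomes. X thus had few broad peaks and few peaks of any width.

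**Figure D2:**
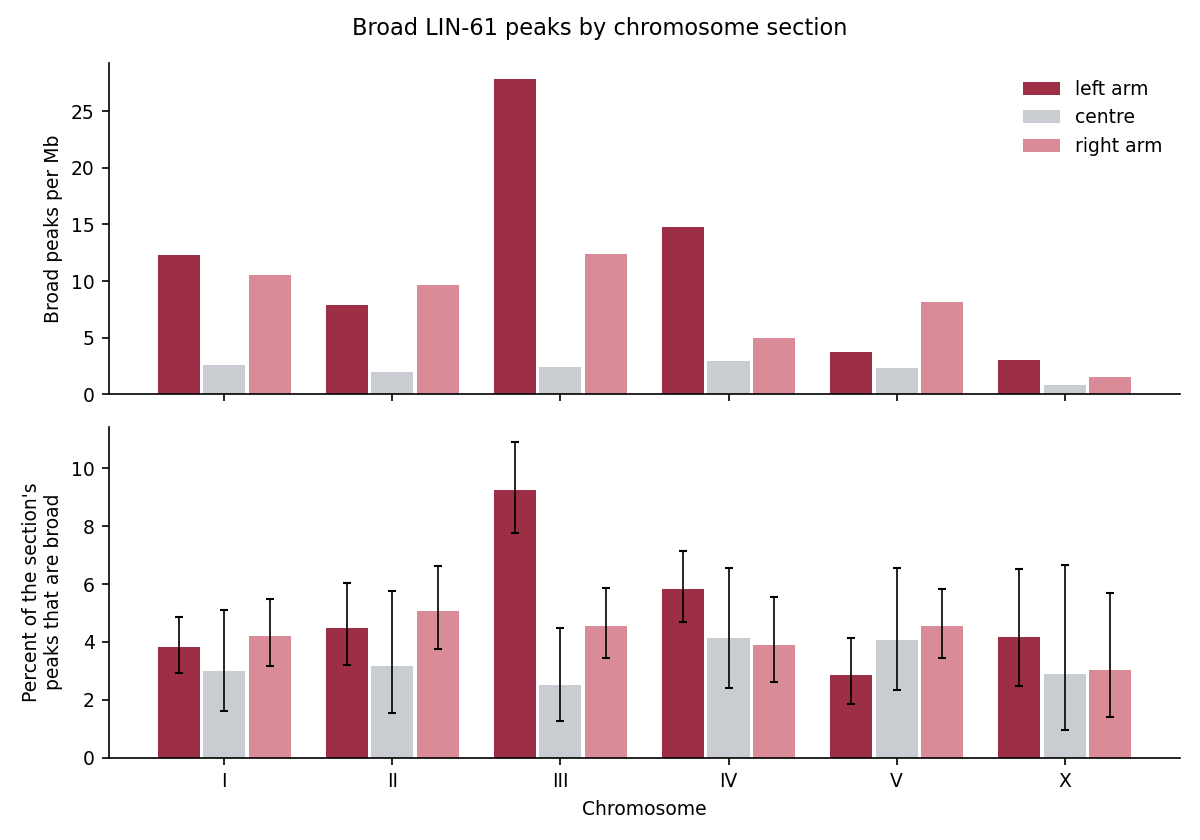
Density of broad peaks in peaks per Mb (top) and the percent of each section's peaks that are broad (bottom, error bars are exact 95% binomial intervals) for the left arm, centre and right arm of each chromosome in the whole-series list. The left arm of III has 27.9 broad peaks per Mb and 9.24% of its peaks are broad, above all other sections on both scales.

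In windows of 1 Mb the concentration was plainer. The median window held 4 broad peaks, and 7 of 103 windows held none. The window from 1000001 to 2000000 on III held 61, with 219 kb of its sequence in broad peaks. Next came 2000001 to 3000000 on IV with 35 and 1000001 to 2000000 on IV with 29. The 10 windows with the most broad peaks held 40.2% of them, and the same windows held 25.7% of the narrower peaks. The windows were ranked on broad peaks, so the first of these shares is high by construction.

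Spacing was measured as the number of bases between the edges of neighbouring peaks. Broad peaks lay near other broad peaks more often than narrower peaks did. Another broad peak lay within 20 kb of 64.0% of broad peaks (95% interval 60.3 to 67.6), and a broad peak lay within 20 kb of 36.8% of narrower peaks (36.0 to 37.6). The median distance to the nearest other broad peak was 6.60 kb for broad peaks and 37.4 kb for narrower peaks. The order was the same within arms and within centres taken alone. On the arms 68.1% of broad and 40.5% of narrower peaks had a broad peak within 20 kb, and in the centres 29.2% (19.0 to 41.1) and 15.4% (13.9 to 17.0). With all of III left out the shares were 56.9% and 34.4%. On the left arm of III they were 89.8% and 60.2%.

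The nearest peak of any width was usually close by. It lay within 500 bp of 75.5% of broad peaks (72.1 to 78.7) and of 56.4% of narrower peaks (55.5 to 57.2). The median distance was 171 bp for broad peaks and 386 bp for narrower ones. The smallest distance between peaks was 51 bp in the whole-series list and 37 bp in the replicate 2 list. Whether stretches with shorter gaps were joined into 1 peak was not tested. Within 5 kb of its edges a broad peak had a median of 5 other peaks (quartiles 3 and 7) and a narrower peak 4 (2 and 6). The medians were the same on the arms alone, but in the centres both sets had a median of 2 (1 and 4). A broad peak reaches further along the chromosome, but the 5 kb were counted from its edges.

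**Figure D3:**
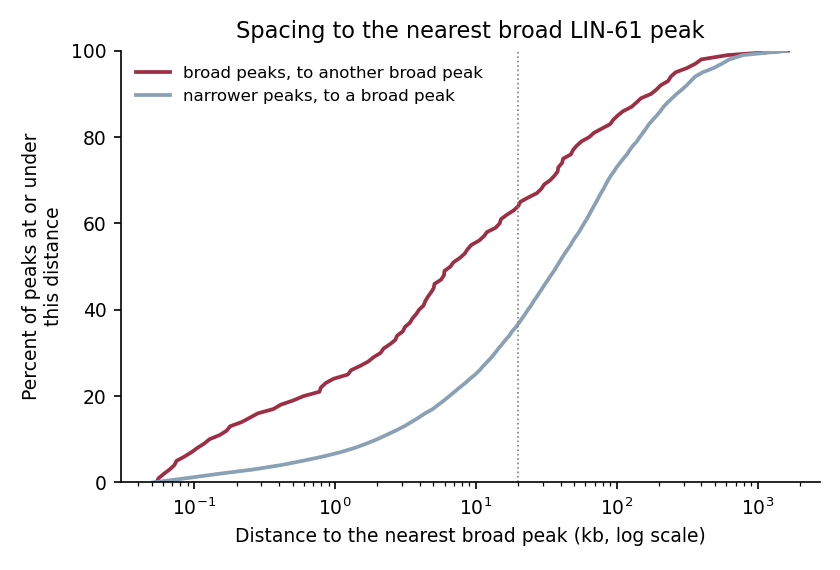
Percent of peaks (vertical axis) whose nearest broad peak lies at or under a given distance in kb (horizontal axis, log scale), for broad peaks to another broad peak and for narrower peaks to a broad peak, whole-series list. At 20 kb, the dotted line, the curves stand at 64.0% for broad peaks and 36.8% for narrower peaks.

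Runs of broad peaks with gaps under 5 kb took in 307 of the 686 broad peaks, in 119 runs, and 38 of these runs had 3 or more members. Of the 119 runs 41 were on III, 26 of them on its left arm. Of all broad peaks III held 28.6% and its left arm 18.7%. The longest went from 1500914 to 1552436 on the left arm of III, 51.5 kb with 8 broad peaks that filled 74.7% of it. Replicate 1 peaks covered 77.5% of this run and replicate 2 peaks 87.3%. The second was on the right arm of II, from 15193425 to 15230678, 37.3 kb with 5 broad peaks. Replicate 1 covered 81.4% of it and replicate 2 covered 74.9%. The third, again on the left arm of III, went from 1583231 to 1617366 and had 8 broad peaks over 34.1 kb. Replicate 1 covered 72.5% of this run and replicate 2 covered 72.8%, shares that need not be the same bases.

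At the other extreme, 46 broad peaks (6.71%) had no other peak within 5 kb, as did 9.82% of the narrower peaks. Of these 46, 14 were among the 72 broad peaks in centres, and 9 were among the 32 on X. In centres 19.4% of broad and 21.9% of narrower peaks had no other peak within 5 kb, and on arms 5.21% and 7.70%. One of the 46 was the widest peak of X, described below.

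The replicate lists were then compared with the broad peaks, as the measure that the width rule had not used. The whole-series list may rest on the same reads, so the replicates are not independent of it. Nearly all broad peaks were met by both: 636 of 686, or 92.7%, overlapped a peak of each replicate by at least 1 bp. Of the narrower peaks 34.4% did, and of those of 1500 bp or more 88.1% did. A wide peak meets an overlap of 1 bp more easily than a narrow one. Another 49 broad peaks met replicate 2 alone, 1 met replicate 1 alone and none was missed by both. Of the narrower peaks 2096 were missed by both.

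By bases, the replicate lists covered 76.5% ± 19.5 of the broad peaks (SD, n = 2) and 55.0% ± 24.7 of the narrower peaks. Replicate 1 covered 62.7% of the bases in broad peaks and 37.5% of those in narrower peaks, and replicate 2 covered 90.3% and 72.5%. In each replicate the broad peaks were thus the better covered set. Narrower peaks of 1500 bp or more lay nearer to them, with 52.5% of bases covered by replicate 1 and 86.6% by replicate 2. Cover thus differed by width among the narrower peaks too. The gap between the replicates was wider than the gap between the sets. At least 90% of a broad peak was covered in 435 cases (63.4%) by replicate 2 but in 72 (10.5%) by replicate 1. Less than 50% was covered in 15 cases by replicate 2 and in 213 by replicate 1. Both replicates reached 90% in 51 broad peaks.

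**Figure D4:**
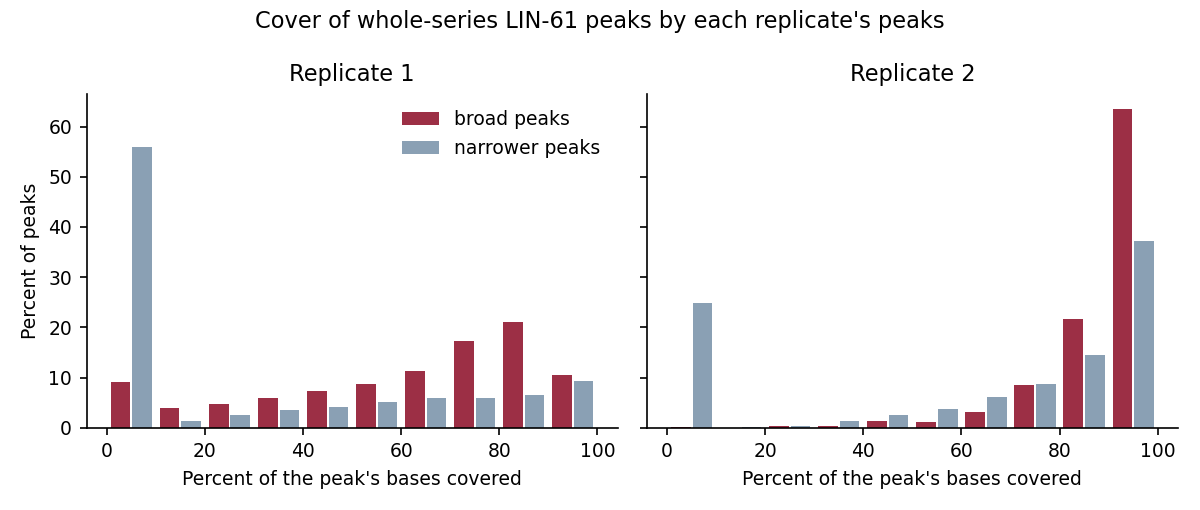
Percent of the bases of each whole-series peak that lie in peaks of replicate 1 (left) or replicate 2 (right), in steps of 10 points on the horizontal axis, with the percent of broad and of narrower peaks in each step on the vertical axis. Replicate 2 covers at least 90% of 63.4% of broad peaks and of 37.2% of narrower peaks, and replicate 1 covers that much of 10.5% and 9.23%.

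Few broad peaks were 1 unbroken peak in the replicates. A replicate peak was counted as inside when its midpoint lay in the broad peak. A broad peak held a median of 3 replicate 1 peaks (quartiles 2 and 4, highest 16) and 2 replicate 2 peaks (1 and 3, highest 10). The mean was 2.86 in replicate 1 and 2.12 in replicate 2, 2.49 ± 0.53 over both (SD, n = 2). Narrower peaks held 0.494 and 0.809 on average. A wider peak has room for more midpoints, so these counts depend on width. Exactly 1 replicate 1 peak was inside in 119 broad peaks, and 518 (75.5%) held 2 or more. For replicate 2 these numbers were 286 and 396 (57.7%). In 75 broad peaks (10.9%) both lists had exactly 1 peak inside.

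Per kb narrower peaks held more. There were 0.805 replicate 1 peaks and 0.594 replicate 2 peaks for each kb of broad peak, against 1.06 and 1.73 for each kb of narrower peak. A short peak with a single replicate peak inside has a high count per kb, so this order depends on the width rule. For narrower peaks of 1500 bp or more the counts per kb were 0.921 and 0.934. For broad peaks of 2 to 3 kb they were 0.862 and 0.729, and for those of 10 kb or more 0.657 and 0.255. Replicate 1 had more peaks inside than replicate 2 in 362 broad peaks and fewer in 147, although its list is shorter. In narrower peaks it had more in 1835 and fewer in 5997. Replicate 1 thus showed broad peaks as more and smaller pieces. For each broad peak the widest overlapping replicate peak was taken, and its median width was 1059 bp in replicate 1 but 2200 bp in replicate 2. The longest stretch of a broad peak left uncovered had a median of 486 bp for replicate 1 and of 135 bp for replicate 2.

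Whether a peak was broad in a replicate as well depended on which replicate was asked. A replicate 1 peak of 2000 bp or more met 135 broad peaks (19.7%), and a replicate 2 peak of that width met 416 (60.6%). The mean was 40.2% ± 29.0 (SD, n = 2). Both replicates had such a peak in 115 broad peaks (16.8%), replicate 2 alone in 301, replicate 1 alone in 20 and neither in 250 (36.4%). In the last group no overlapping replicate peak reached the bound. From the side of the replicates, 146 of the 150 broad peaks of replicate 1 (97.3%) and 433 of the 449 of replicate 2 (96.4%) met a broad peak of the whole-series list.

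Agreement on width was more common among the wider peaks. Both replicates had a peak of 2000 bp or more in 5.90% of the broad peaks of 2 to 3 kb, in 19.0% of those of 3 to 5 kb, in 51.9% of those of 5 to 10 kb and in 11 of the 15 of 10 kb or more. A wider peak offers more room for a replicate peak of that size. Replicate 1 covered 57.7%, 61.4%, 67.9% and 77.1% of the bases of these classes, in the order of their width, and replicate 2 covered 89.7%, 89.2%, 93.0% and 90.6%.

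The 115 peaks that were broad in both replicates were wider than the rest. Their median width was 4662 bp. It was 2965 bp for those broad in replicate 2 alone, 2869 bp for those broad in replicate 1 alone and 2547 bp for those broad in neither. The 115 were chosen on the width of overlapping replicate peaks, so their greater width is partly by construction. Of the 115, 109 (94.8%) lay on the arms. The 115 made up 40 of the 196 broad peaks on III, 23 of 132 on IV and 21 of 128 on I. On II they were 16 of 99, on V 11 of 99 and on X 4 of 32. Over all chromosomes they were 16.8% of the broad peaks. Of the 301 that were broad in replicate 2 alone, 257 (85.4%) lay on the arms, and of the 250 broad in neither, 230 did (92.0%).

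Chromosomes differed in how replicate 1 saw their broad peaks. It covered 70.7% of the broad-peak bases on III and 42.5% on X, with 58.8% to 62.1% on the other 4 chromosomes. Replicate 2 covered 88.2% to 91.6% on every chromosome. In replicate 1 the cover was 64.2% on arms and 48.3% in centres, and in replicate 2 it was 90.1% on arms and 91.5% in centres. Counting peaks of all widths, replicate 1 had 409 on X and 2404 on III, where the whole-series list had 900 and 3075. It had 8693 on arms and 1265 in centres, against 12504 and 2158. Cover of narrower peaks by place was not compared here, so these differences may not be particular to broad peaks. The 49 broad peaks without any replicate 1 peak included 6 of the 32 on X, 13 of 132 on IV and 12 of 99 on II, but 3 of 128 on I. Over all chromosomes they were 7.14% of the broad peaks. Of the 13976 narrower peaks 7776 had no replicate 1 peak, and of the 396 narrower peaks of 1500 bp or more 45 had none. The median score of the 49 broad peaks was 12.1, against 56.6 for the 636 met by both replicates.

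Scores come from the same calling as the widths and are given as a description. The median score was 51.4 for broad peaks (lowest 5.19, highest 214.0) and 7.48 for narrower peaks, and 592 broad peaks (86.3%) ranked among the highest-scoring 25% of the list. Narrower peaks of 1500 bp or more had a median score of 34.5. Broad peaks on the left arm of III had a median score of 94.2, those elsewhere 44.1 and those in centres 31.1. Scores of narrower peaks were not compared by place, so this order may not be particular to broad peaks.

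The widest peak of the list was on the left arm of III, from 3018226 to 3034663, 16438 bp wide with a score of 92.7. It held 14 replicate 1 peaks that covered 80.7% of it and 5 replicate 2 peaks that covered 93.6%. The second, on the right arm of III from 12544497 to 12560115, was 15619 bp wide. Replicate 2 had 2 peaks there, the wider of 15378 bp, and replicate 1 had 12 peaks that covered 87.5%. In both peaks replicate 2 was nearly filled and replicate 1 was a row of pieces.

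The third widest was of another kind. It lay near the right end of III, from 13584135 to 13599489, was 15355 bp wide and scored 26.1. Replicate 2 covered 97.4% of it with 4 peaks, while replicate 1 had 2 peaks that covered 2.79%. Among the 10 widest it had both the lowest score and the lowest cover in replicate 1, where the other 9 had 67.0% to 96.9%.

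The fourth, on the right arm of II from 15204793 to 15220043, was 15251 bp wide and was well covered by both replicates, 96.9% by 6 peaks of replicate 1 and 95.8% by 4 of replicate 2. It belongs to the second longest run described above. The fifth was the widest of X, from 16929649 to 16944301 on the right arm, 14653 bp wide with a score of 148.8. It was the least broken of the 10: replicate 1 had 2 peaks there, the wider of 8076 bp, and replicate 2 had 1 of 14598 bp. It was also the most isolated of the 10, with the nearest peak of any width 15498 bp away and the nearest broad peak 365497 bp away.

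The sixth lay on the left arm of I from 1361339 to 1375410 and the seventh on the right arm of II from 13284182 to 13298240, 14072 and 14059 bp wide. Replicate 1 covered 76.6% and 83.0% of them and replicate 2 covered 93.4% and 93.5%. The eighth, on the left arm of IV from 1848292 to 1861336, was 13045 bp wide and showed the sharpest contrast in form: replicate 2 had 1 peak of 13030 bp, and replicate 1 had 16, the most in any broad peak. The ninth lay on the right arm of IV from 16487597 to 16499287 and the tenth on the left arm of III from 2194039 to 2205488. V had no peak among the 10; its widest was on the right arm from 20408058 to 20417652, 9595 bp wide, 82.9% covered by replicate 1 and 98.6% by replicate 2.

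**Figure D5:**
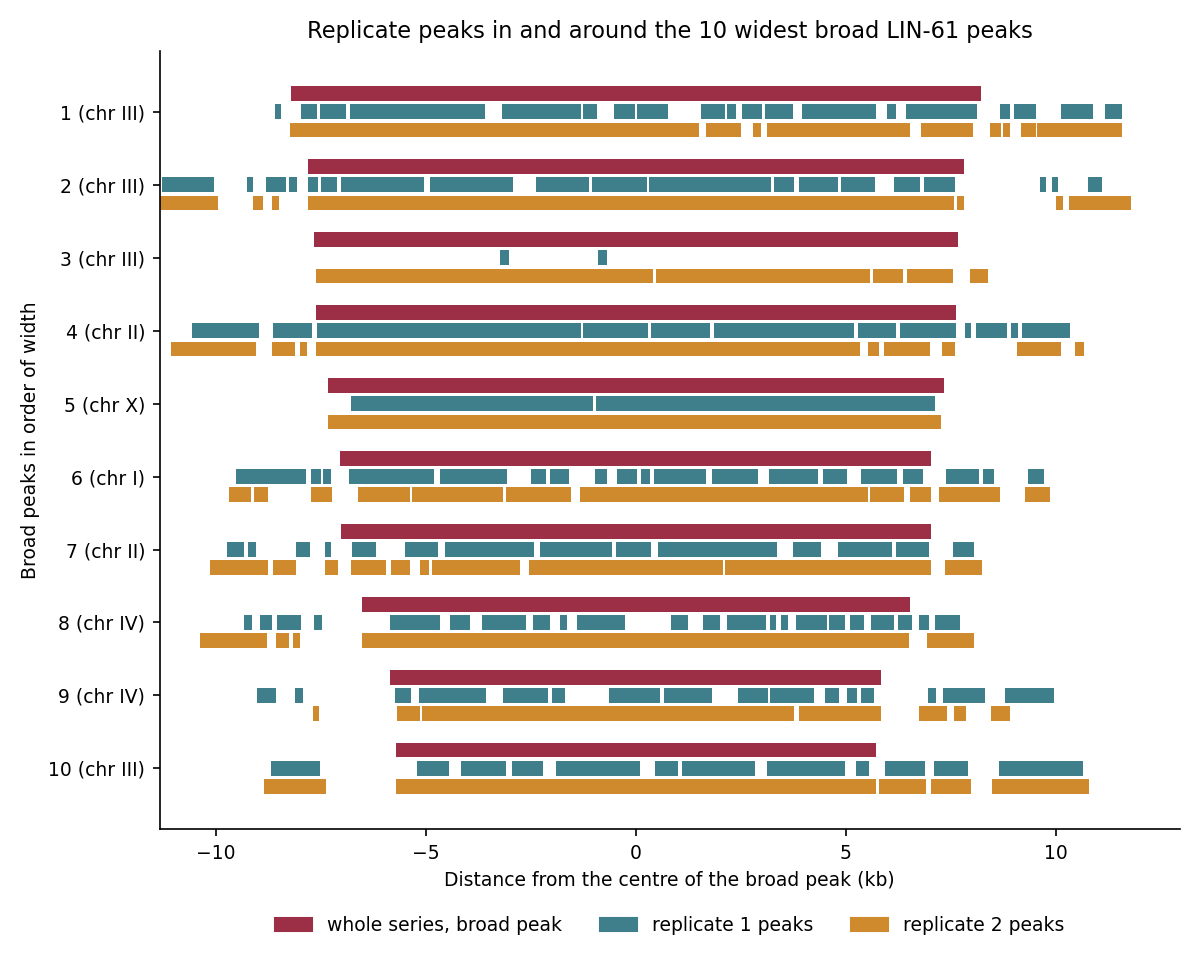
Map of the 10 widest broad peaks, ordered by width from the top, with the replicate 1 and replicate 2 peaks that lie in them or within 3 kb of them. The horizontal axis is the distance from the centre of the broad peak in kb. Replicate 1 shows 2 to 16 pieces in each and replicate 2 shows 1 to 6, and in the third, on III, replicate 1 has 2 small peaks where replicate 2 covers 97.4%.

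With both lists summed, the most replicate peaks were in the widest peak of the list and the widest of I, with 19 each, followed by the widest of IV with 17. Then came a peak of 8395 bp on the left arm of IV from 2600204 to 2608598 and one of 7490 bp on the right arm of III from 11932881 to 11940370, with 16 each. The peak on IV had a score of 145.25 and was covered to 84.5% by replicate 1 and 91.9% by replicate 2.

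Some of the broadest peaks were seen in 1 replicate. The widest without any replicate 1 peak was in the centre of X, from 7352318 to 7361319. It was 9002 bp wide and scored 13.1, and 2 replicate 2 peaks covered 98.1% of it. The single broad peak without any replicate 2 peak lay at the right end of I, from 15060298 to 15071330, and ranked twelfth in width with 11033 bp. Replicate 1 had 12 peaks there that covered 75.5% of it, the widest of 4035 bp. Its score in the whole-series list was 8.45, where the median over all peaks was 7.86. In C. elegans the ribosomal RNA gene array lies at the right end of chromosome I. No annotation of the files' genome build was used here, and whether this peak lies in the array was not tested.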

How the data were processed

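The submitters' processing notes name BWA and the ce10 build. MACS, the peak caller, and WormBase WS220 are named per the file headers. Not given in the sources used here are versions, the threshold, filters and whether input served in calling. The authors deposited a start, an end (1-based positions, in bp) and a score for each peak, in 3 lists, 1 of the whole series and 1 of each ChIP library. Peak width depends on depth and on how the caller joins neighbouring stretches. The read depth is unknown, so no precision follows from it.

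Here, with Python 3.11.15, numpy 2.4.6, pandas 2.3.3 and scipy 1.17.1, peaks of 2000 bp or more were taken as broad. Samples were grouped by their titles. The replicates' labels do not say whether they came from separate cultures, so their spread may be technical. A chromosome's length was taken as its last peak end over the 3 lists (100.3 Mb in all), and a peak belonged to the third that holds its midpoint. Interval counts were tested on simulated data. The members, the width bound and the comparisons were chosen with earlier results of these data known. Named regions are the 10 widest, the widest of each chromosome, the 5 with the most replicate peaks inside, the 3 longest runs, the widest missed by a replicate, and the 3 on each side of the bound. No gene annotation of build WS220 was used here. Alternatives were widths of 1500 and 3000 bp, merging of peaks less than 500 bp apart, the higher-scoring 50%, other arm bounds, distances and overlap rules, and leaving out III or a replicate.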

Additional observations from a re-analysis of the deposited data

How the results depend on the processing

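The excess of the broad over the narrower arm share stayed above 0 in the whole-series list under the 6 alternatives run for it, but its interval includes 0 without chromosome III (-0.73 to 5.31 points) and in the higher-scoring 50% (-0.98 to 3.73 points). Other differences between broad and narrower peaks were not recomputed under all alternatives. The share of broad peaks on the arms (89.5%) was 81.8% with arms as the outer 25%, where the same share in the replicate lists (90.9% ± 4.4) was 85.2%. The excess of that share over narrower peaks (4.43 points), recomputed after seeing the data, was 7.62 points with those arms and 1.55 points in the higher-scoring 50%. The share of covered bases in broad peaks (27.2%) was 34.8% at a width of 1500 bp and 17.1% at 3000 bp. It was 54.7% with peaks less than 500 bp apart merged, 35.4% in the higher-scoring 50% and 25.2% without chromosome III. In the replicate lists (15.6%) it was 8.36% at 3000 bp and 46.8% after merging. Broad peaks with another within 20 kb (64.0%) were 70.2% at 1500 bp, 48.2% at 3000 bp, 67.6% after merging and 56.9% without III. Within 5 kb they were 44.8% and within 50 kb 77.4%. The number of replicate peaks inside (2.49) was 3.15 at 3000 bp, 1.54 after merging and 1.75 in the higher-scoring 50%. The number of broad peaks, also added after seeing the data, was 1082 at 1500 bp, 313 at 3000 bp and 1235 after merging. The cause of these moves was not tested. With a replicate left out, replicate peaks inside ran from 2.12 to 2.86, bases covered from 62.7% to 90.3%, and broad peaks met by a replicate peak of 2000 bp or more from 19.7% to 60.6%. The replicate lists' share of covered bases in broad peaks ran from 10.7% to 20.6% and their arm share from 87.8% to 94.0%. No paired analysis was possible because the numbers tie ChIP to input samples, input was not analysed here, and no value comes from a test. Without read depth, a replicate's missing peak cannot be told apart from a shallower library.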

Other observations

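The regions in this section were picked out after their values were seen. Of the 16 broad peaks of replicate 2 that met no broad peak of the whole-series list, 8 were on X, 4 on I and 1 each on II, III, IV and V. Among those on X, 5 lay side by side on the left arm from 4034853 to 4056442, a stretch of 21.6 kb. Replicate 2 had 7 peaks in it, and its 5 broad ones covered 17.5 kb with scores of at most 16.4. The whole-series list had 30 peaks there, the widest of 1118 bp, with scores of at most 8.21, and replicate 1 had none. The same stretch is thus broad in replicate 2 and a row of narrower peaks in the whole-series list.

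Only 6 broad peaks scored below the median of the whole-series list. The widest of them lay in the centre of X from 10361069 to 10369116 and was 8048 bp wide with a score of 6.94. Replicate 2 covered 98.4% of it, replicate 1 had no peak there, and the nearest peak of any width was 60756 bp away. Another, from 17386582 to 17392001 on the right arm of V, was 5420 bp wide with a score of 6.82. It held 3 peaks of replicate 1 and 9 of replicate 2, all under 1 kb, which covered 11.6% and 69.2% of it. The other 4 were 2040 to 2262 bp wide and lay on I, II, IV and V. Replicate 1 had peaks in 1 of these 4, on V.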
